A study of Mus musculus with 6 samples.

Results

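Srf, Myocd, Mkl1 and Mkl2, transcription regulators of contractile genes, are described here in E18.5 fetal mammary cells and adult basal mammary cells. Mkl1 and Mkl2 are now named Mrtfa and Mrtfb. They were taken as a named set of 4 genes among the 20660 genes that the array probes matched, and every array probe whose accession belonged to one of them was used, without regard to its signal. This gave 8 probes of 27235. RNA was measured on one-color Agilent arrays, on which the brightness of a spot reports the labelled RNA bound by an oligonucleotide probe, from 3 biological replicates in each population, each on its own array. The fetal cells came from the glands of embryonic day 18.5 C57Bl6/J mice and were sorted as CD31-CD45-Ter119-EpCAM++CD49f+ cells. The adult basal cells came from glands of 8–12-wk C57Bl6/J mice and were sorted in the same way. The exceptions were that the gate was EpCAM+CD49f+ and that BP-1+ stromal cells were also removed. Both groups are labelled female, neither carried a mutation or received a treatment, and the sources used here do not say how many animals went into a replicate. The adult glands were digested overnight and the fetal glands for a much shorter time, so that development and digestion cannot be told apart in any difference below.

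SRF is a DNA-binding factor that recognizes the CArG box, a short element in the promoters of muscle, cytoskeletal and immediate early genes. Its partners set which of these genes are read: myocardin (Myocd) and the myocardin-related factors MKL1 and MKL2 drive contractile and cytoskeletal genes, whereas the ternary complex factors ELK1, ELK3 and ELK4 connect SRF to growth factor signalling and immediate early genes. MKL1 and MKL2 are held by free actin monomers and enter the nucleus when RhoA signalling draws the monomers into filaments, so that their activity is regulated to a large extent after the RNA is made. In the mammary gland the basal layer is largely myoepithelium, which carries smooth muscle contractile proteins and squeezes out milk in response to oxytocin, and mice lacking Mkl1 fail to keep up lactation.

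The Srf promoter itself is shown because SRF is known to act on its own gene. The 250 bases before the Srf start site (RefSeq, GRCm38.p6, chr17:46556163-46556412, minus strand) are written 5′ to 3′ with the CArG boxes in capitals. A box was counted where CC was followed by 6 bases that were each A or T and then by GG, an element of 10 bases that reads as a box on either strand.
Srf promoter: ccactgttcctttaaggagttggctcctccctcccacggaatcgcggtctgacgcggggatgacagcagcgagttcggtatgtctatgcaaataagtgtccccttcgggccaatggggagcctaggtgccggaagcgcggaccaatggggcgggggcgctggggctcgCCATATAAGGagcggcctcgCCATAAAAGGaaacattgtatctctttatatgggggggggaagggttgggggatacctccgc
The first box begins 82 bases and the second 62 bases before the start site. Of the other regulators, the windows of Mkl1 and Mkl2 held no box, and the promoter of Myocd was not analysed here. Among all genes of the promoter table, 488 of 27025 (1.81%) had a box in a window of 250 bases before to 50 bases after a start site.

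The regulators differed little between the populations beside most of the contractile genes that they are known to drive. Mkl1 was the member with the largest differences among the probes tested, with both probes more than 2-fold brighter in adult basal cells, Myocd and the tested probes of Mkl2 had overlapping groups, and the 2 probes of Srf pointed in opposite directions. A probe was called where its p in limma, adjusted by Holm's method, was 0.05 or less and the groups differed by at least 1 on the log2 scale, which is 2-fold. None of the 7 member probes that passed the low-signal filter was called by this rule, while 11.1% of all 20448 tested probes were, 5.92% with the fetal and 5.18% with the adult basal signal higher. With Benjamini-Hochberg in place of Holm adjustment, 2 of the 7 were called, both of Mkl1 and both higher in adult basal cells, beside 30.0% of all tested probes (14.0% higher in adult basal cells), and 4 of the 7 had an unadjusted p under 0.05, as did 64.7% of all tested probes. The values of the 2 groups did not overlap for 4 of the 7 probes (57.1%), of which 3 were higher in adult basal cells. Among all tested probes the share was 69.0%, with 34.1% higher in fetal and 35.0% higher in adult basal cells. The median size of the difference was 0.35 on the log2 scale over the 7 probes and 0.55 over all tested probes. The smallest p that exact permutation allows with 3 arrays in each group is 0.1, and only the fit across all probes was used.

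**Figure D1:**
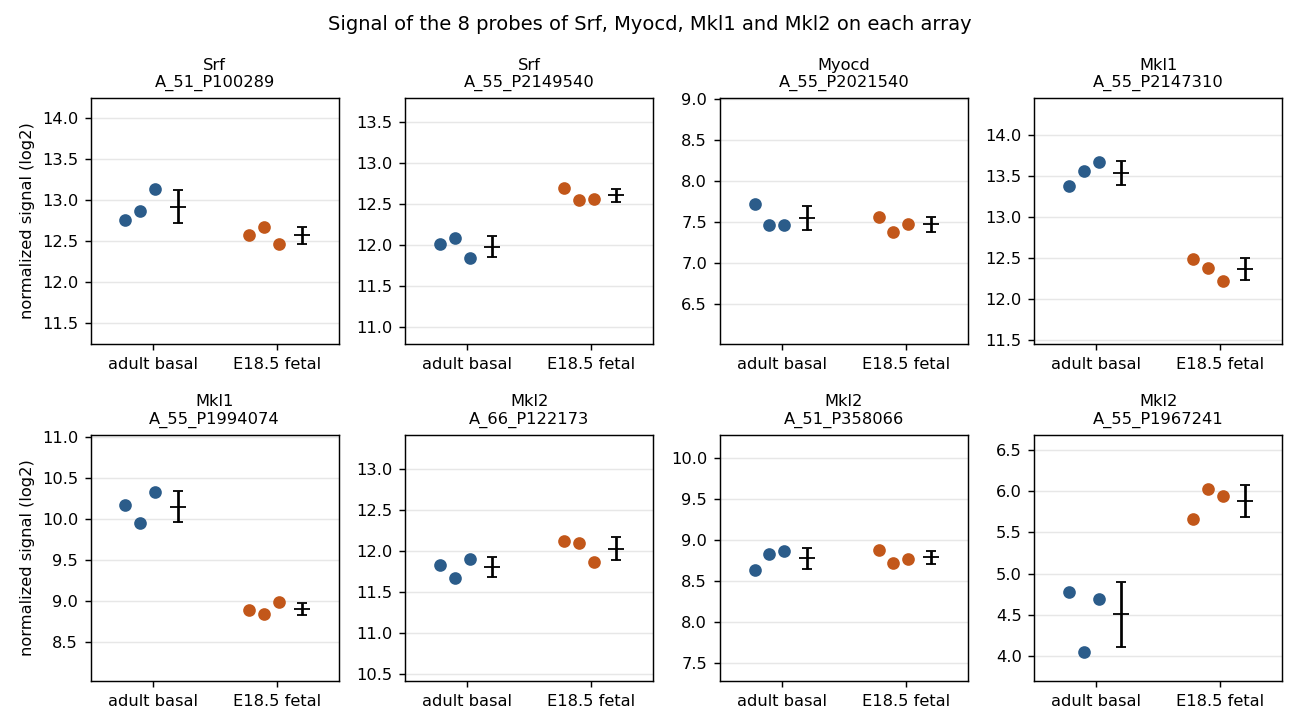
Normalized signal (log2) of each of the 8 probes on the 3 adult basal arrays (blue) and the 3 E18.5 fetal arrays (orange), with the mean and SD of each group in black; each panel spans 3 log2 units around its own middle, and levels should not be set against each other between panels. The fetal points of the 2 Mkl1 probes lie wholly below the basal points, the Myocd points overlap, and the 2 Srf probes move in opposite directions.

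Srf encodes the factor on which the other members act. Its brighter probe, A_51_P100289, read 12.75, 12.86 and 13.14 on the adult basal arrays and 12.57, 12.66 and 12.46 on the fetal arrays (normalized signal, log2). All fetal arrays lay below all basal arrays. The fetal minus basal difference was -0.35 ± 0.13 (log2, SE, n = 3 and 3), with a 95% interval from -0.66 to -0.04, and had a Holm-adjusted p of 1.0 and a Benjamini-Hochberg adjusted p of 0.05 by limma. The other Srf probe, A_55_P2149540, read 12.02, 12.09 and 11.84 on the basal arrays and 12.70, 12.56 and 12.56 on the fetal arrays. Here all fetal arrays lay above all basal arrays. Its difference was 0.62 ± 0.11 on the log2 scale, with an interval from 0.36 to 0.88, a Holm-adjusted p of 1.0 and a Benjamini-Hochberg adjusted p of 0.0019. The intervals of the 2 probes do not overlap, both probes exceeded background on every array, and both match Srf transcripts, so no direction is given here for Srf RNA as a whole. The mean of the 2 probes differed by 0.14 in favour of fetal cells, so the sign for the gene turns with the choice of probe.

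Myocd encodes myocardin, the founding coactivator of the family and the one most closely tied to smooth and cardiac muscle. Its only matched probe, A_55_P2021540, read 7.72, 7.46 and 7.47 in adult basal cells and 7.56, 7.38 and 7.47 in fetal cells (log2). The groups overlapped, and basal replicate 1 was the highest of the 6. The difference was -0.08 ± 0.12 on the log2 scale, with an interval from -0.35 to 0.20, a Holm-adjusted p of 1.0 and a Benjamini-Hochberg adjusted p of 0.59. As a ratio of fetal to basal signal the interval ran from 0.783 to 1.15. Its signal exceeded background clearly on each of the 6 arrays, and without basal replicate 1 its difference was 0.0082, with the opposite sign.

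Mkl1 encodes MKL1, which responds to RhoA and actin. Its brighter probe, A_55_P2147310, read 13.38, 13.56 and 13.67 in adult basal cells and 12.49, 12.37 and 12.22 in fetal cells. The lowest basal array lay well above the highest fetal array. The difference was -1.17 ± 0.12 on the log2 scale, with an interval from -1.46 to -0.89, which is 2.26-fold brighter in adult basal cells. The other probe, A_55_P1994074, read 10.17, 9.95 and 10.33 in basal cells and 8.89, 8.84 and 8.98 in fetal cells. It also separated the groups on every array, and its difference was -1.24 ± 0.13 (interval from -1.54 to -0.95), 2.37-fold. By limma the 2 probes had Holm-adjusted p of 0.4 and 0.32, which are not past the threshold, and Benjamini-Hochberg adjusted p of 1.3e-04 and 1.0e-04, which are. The sizes of these differences exceeded those of 74.7% and 76.4% of all tested probes. The arrays were hybridized on 2 slides, each with both populations. Slide 1 held 1 fetal and 2 adult basal arrays, and slide 2 held 2 fetal and 1 adult basal array. Each difference within a slide thus rests on a single array of 1 population. Within slide 1 the brighter probe differed by -1.03 and within slide 2 by -1.27. For the other probe these differences were -1.36 and -1.04.

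Mkl2 encodes the related MKL2, which has a similar actin-binding region. The brighter of its probes, A_66_P122173, read 11.84, 11.68 and 11.91 in adult basal cells and 12.12, 12.10 and 11.87 in fetal cells. Fetal replicate 3 lay among the basal arrays. The difference was 0.22 ± 0.12 on the log2 scale, with an interval from -0.05 to 0.50 and a Benjamini-Hochberg adjusted p of 0.14. For A_51_P358066 the difference was 0.02, with an interval from -0.24 to 0.27 and overlapping groups. The remaining probe, A_55_P1967241, is assigned to another transcript of the gene and fell below the low-signal filter in both populations, so that it was not part of the main test. It read 4.78, 4.05 and 4.68 in basal cells and 5.66, 6.03 and 5.95 in fetal cells, clearly over background on each array, and the groups did not overlap. Fitted with no filter, it differed by 1.38 ± 0.22 (log2, interval from 0.83 to 1.92), with a Holm-adjusted p of 1.0 and a Benjamini-Hochberg adjusted p of 0.0031.

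Most of the contractile genes known to be driven by SRF with myocardin or the myocardin-related factors were called lower in fetal cells. Of 16 such genes, 15 passed the filter, 11 were called and all 11 were higher in adult basal cells. The calls for Myl9, Actg2 and Cald1 were each lost with some single arrays left out, and the count was then 8 without fetal replicate 2 or 3 and 11 without basal replicate 2. Beside this, 5.21% of all 15734 tested genes were called higher in adult basal cells and 6.03% higher in fetal cells, each gene by its brightest probe. The median difference was -4.00 on the log2 scale over the 15 genes and -0.04 over all tested genes. This first median rests in part on the filter: Myh11, Lmod1 and Synpo2 passed the filter only through the adult basal cells and Ppp1r12b only through the fetal cells. Of the 11 genes above the filter in both populations, 8 were called higher in adult basal cells and none in fetal cells, and their median difference was -2.66. In sorted bulk samples, fewer contractile cells and less contractile RNA in each cell cannot be told apart.

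Myh11, the smooth muscle myosin heavy chain, read 14.07, 14.34 and 14.64 in adult basal cells and 5.64, 5.999 and 5.53 in fetal cells, a difference of -8.63 ± 0.18 on the log2 scale (Holm-adjusted p = 7.0e-06 by limma), or -7.46 with the normexp background correction. Cnn1, the actin-binding protein calponin, read 17.42, 17.47 and 17.28 in basal cells and 11.78, 11.62 and 10.76 in fetal cells, a difference of -6.01. Synpo2, an actin-bundling protein of muscle, differed by -5.63 in its brightest probe (-4.42 with normexp) and by -1.24 and -1.85 in its other probes, which were not called, with -2.91 for the mean of the probes. These genes separated the populations on every array, while fetal replicate 3 was the lowest for Cnn1. Tpm2, a tropomyosin, differed by -5.14, the calponin-related Tagln by -4.87, the myosin light chain kinase Mylk by -4.50, and Acta2, smooth muscle actin, by -4.07, all called. The genes whose brightest probe was not called by Holm adjustment were Smtn, Tpm1, Jph2 and Ppp1r12b. Smtn, the smooth muscle protein smoothelin, differed by -1.30 in that probe (Holm-adjusted p = 0.057 by limma) and by -2.62 in its other probe, which was called (0.0044). Ppp1r12b, a subunit of the myosin phosphatase that opposes contraction, differed by 1.05 toward fetal cells and was called by Benjamini-Hochberg adjustment only. The 5 tested probes of Tpm1, a tropomyosin gene with many spliced forms, differed by -1.51 to 2.18. Des, the muscle intermediate filament desmin, did not pass the filter. On the fetal arrays it was nowhere well above background, and it was at least 2.44-fold brighter in adult basal cells, a bound set by the lowest signal well above background.

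Among the widely expressed cytoskeletal and adhesion targets of SRF, more were called higher in adult basal cells than in fetal cells. Of 18 genes, 16 were tested (Tgfb1i1 had no matched probe and Fhl1 fell below the filter) and 4 were called: Ccn2, Actn1 and Itga5 were higher in adult basal cells, and Ccn1 was higher in fetal cells. Among all tested genes the shares were 5.21% and 6.03%. The median difference over the 16 was -0.79 on the log2 scale. At an unadjusted p under 0.05, 9 were higher in adult basal and 2 in fetal cells, beside 32.0% and 31.8% of all tested genes. Ccn2, a matricellular protein also known as connective tissue growth factor, read 17.03, 17.29 and 17.36 in basal cells and 14.31, 14.42 and 14.18 in fetal cells, a difference of -2.92 (Holm-adjusted p = 0.0011 by limma). Its relative Ccn1 went the other way, with 12.44, 12.70 and 12.65 in basal cells and 14.63, 14.62 and 14.65 in fetal cells, a difference of 2.04 (Holm-adjusted p = 0.0039). In both genes the populations were apart on every array. The Ccn1 call was lost without any 1 of the fetal replicates. Actn1, an actin crosslinker, differed by -2.53, with a call that was lost without fetal replicate 2. Itga5, the fibronectin receptor subunit, differed by -1.82, with a call that was lost when any 1 array was left out. The Itga5 call was also lost when slide was fitted as a block (Holm-adjusted p = 0.14 by limma). With Benjamini-Hochberg adjustment 8 genes were called higher in basal cells (13.9% of all tested genes were), among them Vcl at -1.22, Flna at -1.15 and Myh9 at -1.70, and 1 was called higher in fetal cells (15.8% of all tested genes were). Pdlim7, an actin-associated adaptor, differed by -1.64 in its brightest probe and was called in another at -2.47. The cytoplasmic actins Actb and Actg1 had overlapping groups in their brightest probes and differed by 0.19 and 0.01. The 5 probes of Actg1 ran from -0.59 to 0.27, none was called, and the groups did not overlap for 3 of them, 2 lower and 1 higher in fetal cells.

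**Figure D2:**
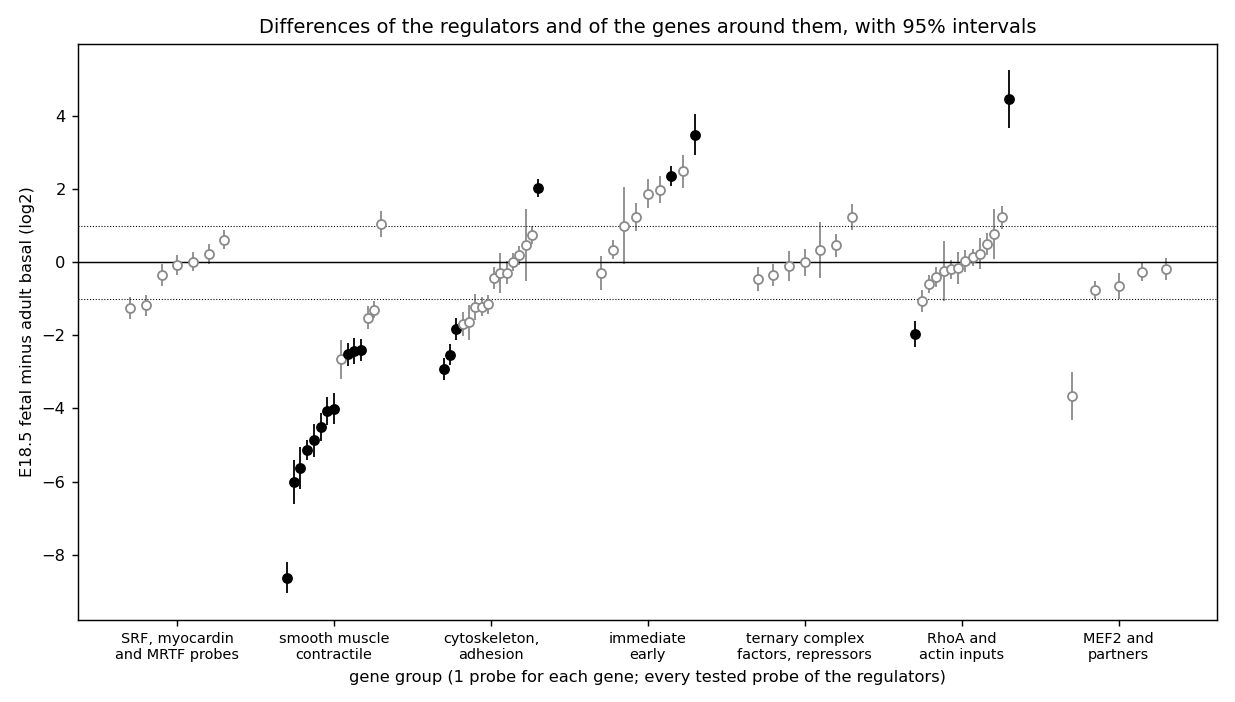
Fetal minus adult basal difference (log2, vertical axis) with its 95% interval for each tested probe of the 4 regulators and for 1 probe of each gene in 6 lists around them; filled points were called, open points were not, and dotted lines mark a 2-fold difference. The contractile genes reach down to -8.63, the regulators stay between -1.24 and 0.62, and 8 of 9 immediate early genes lie above 0.

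The called immediate early targets of SRF were higher in fetal cells, whereas the called contractile genes were higher in adult basal cells. All 9 genes of this list were tested, and 2 were called by Holm adjustment, both higher in fetal cells, beside 6.03% of all tested genes. By Benjamini-Hochberg adjustment 6 were called, all higher in fetal cells, beside 29.7% of all tested genes in either direction and 15.8% in this one. At an unadjusted p under 0.05, 7 were higher in fetal cells and 0 in adult basal cells, beside 31.8% and 32.0% of all tested genes. Egr3 is among these counts and passed the filter only through the fetal cells. The median difference was 1.88 on the log2 scale, and 1.94 over the 8 genes above the filter in both populations. Nr4a1, a nuclear receptor induced within minutes of stimulation, read 13.37, 14.31 and 13.53 in basal cells and 17.15, 17.17 and 17.37 in fetal cells, a difference of 3.50 (Holm-adjusted p = 0.026 by limma). Fosb, a subunit of the AP-1 factor, read 10.67, 10.36 and 10.60 in basal cells and 12.86, 12.89 and 12.97 in fetal cells, a difference of 2.36 (Holm-adjusted p = 0.0025). Both separated the populations on every array, with basal replicate 2 nearest to the fetal arrays for Nr4a1 and farthest for Fosb. Egr1 at 2.495 and Fos at 1.99 narrowly missed the threshold, with Holm-adjusted p of 0.055 and 0.058. Egr2 was the exception, at -0.29 with overlapping groups. Mcl1 differed by 0.35 in its brightest probe and was called in the other at 1.57. With 1 array left out, the call for Nr4a1 held only without basal replicate 2 and that for Fosb was lost without fetal replicate 1 or 2, so that 0 genes were called without either of these.

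**Figure D3:**
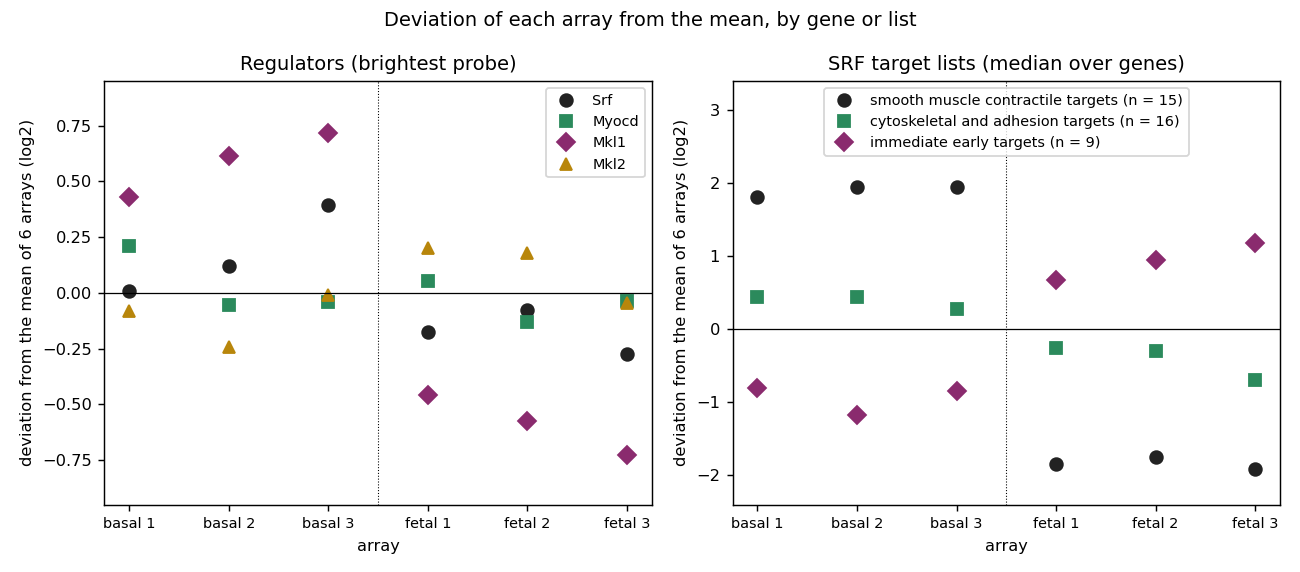
Deviation of each array from the mean of the 6 arrays (log2, vertical axis), on the left for the brightest probe of each regulator and on the right as the median over the tested genes of 3 lists of SRF targets; the vertical scales differ. Contractile targets lie between 1.81 and 1.95 on the basal arrays and between -1.91 and -1.75 on the fetal arrays, Mkl1 lies above 0 on all basal and below 0 on all fetal arrays, and Myocd and Mkl2 do not separate the groups.

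Across the arrays, the contractile list deviated by 1.81 to 1.95 on the basal arrays, whereas Mkl1 deviated by 0.43, 0.61 and 0.72 (log2). On the fetal arrays the list deviated by -1.85, -1.75 and -1.91, and Mkl1 by -0.46, -0.58 and -0.73. Over the 11 contractile genes above the filter in both populations, the deviations were 1.44, 1.39 and 1.66 on the basal and -1.23, -1.29 and -1.71 on the fetal arrays. The immediate early list deviated by -0.81, -1.17 and -0.84 on the basal arrays and by 0.68, 0.95 and 1.18 on the fetal arrays.

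Of the partners and antagonists that act on SRF or on its coactivators, none of 7 tested was called by Holm adjustment, beside 11.2% of all tested genes. In each direction 2 had an unadjusted p under 0.05, beside 31.8% of all tested genes higher in fetal and 32.0% higher in adult basal cells. Elk3, a ternary complex factor that can also repress, read 10.56, 10.08 and 10.11 in adult basal cells and 11.59, 11.43 and 11.43 in fetal cells. Every fetal array was above every basal array. It differed by 1.23 (log2) and was the only gene of this list called by Benjamini-Hochberg adjustment. Of all tested genes, 29.7% were called in that way, 15.8% with the fetal signal higher. Its other probes differed by 1.15, also called in that way, and by 0.37. Elk1 differed by -0.0022 in its tested probe, which read 18.11 to 18.56 over the arrays, near the level of Acta2 in adult basal cells. Its other probe read only 5.33 to 6.22 and fell below the filter. Fitted with no filter, that probe differed by 0.35 with overlapping groups. The level of Elk1 RNA is thus uncertain from these probes. Elk4 differed by -0.45 in its brightest probe. Klf4, which opposes myocardin in smooth muscle, differed by 0.46, Hopx, which binds SRF and lowers its activity, by -0.11, Foxo4, which also binds myocardin, by 0.33, and Scai, which inhibits MKL1, by -0.35.

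The RhoA and actin genes that lead to the myocardin-related factors went in both directions. Of 15 genes, 14 were tested (Abra was not above background on the arrays), 1 was called in each direction, beside 6.03% of all tested genes higher in fetal and 5.21% higher in adult basal cells. The median difference was -0.06 and its median size 0.44, beside 0.53 over all tested genes. At an unadjusted p under 0.05, 4 were higher in each population, beside 31.8% of all tested genes higher in fetal and 32.0% higher in adult basal cells. Diaph3, a formin that assembles actin filaments and is also used in cell division, read 5.80, 7.19 and 6.02 in adult basal cells and 10.83, 10.71 and 10.88 in fetal cells, a difference of 4.47 (Holm-adjusted p = 0.047 by limma), or 3.62 with normexp and 3.60 within slide 2. Its relative Diaph2 read 10.69, 10.79 and 11.20 in basal cells and 8.94, 8.91 and 8.94 in fetal cells, a difference of -1.96 (Holm-adjusted p = 0.046). These formins thus had opposite directions, with no overlap for either. In these probes both calls lay just under the threshold: leaving out 1 array at a time left Diaph3 called only without basal replicate 2 and Diaph2 only without basal replicate 3. Both calls were also lost when slide was fitted as a block, with Holm-adjusted p of 0.062 and 0.25 by limma. The other probe of Diaph2 differed by -2.39 and was also called (Holm-adjusted p = 0.0044), as was the mean of both. Rhob, a stress-induced relative of RhoA, differed by 0.49 and 1.37 in its 2 probes, and Rock2, a RhoA effector kinase, by -0.40 and -1.36, with the larger difference of each called by Benjamini-Hochberg adjustment only. Rhoa differed by 0.13 in its brightest probe, with overlapping groups, and by -0.29 in the other, with groups that did not overlap. Neither Rhoa probe was called. In their brightest probes Rock1 differed by 0.04 and Diaph1 by -0.19. Limk1, the kinase that inactivates cofilin, differed by 1.23 toward fetal cells and Arhgef11, a RhoA activator, by -1.06, and both were called by Benjamini-Hochberg adjustment only.

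MEF2 factors are sister MADS-box proteins that also bind myocardin family members. Of 7 genes in this list, 5 were tested and none was called by Holm adjustment, beside 11.2% of all tested genes. An unadjusted p under 0.05 was found for 3, all lower in fetal cells, beside 32.0% of all tested genes. Mef2c read 8.15, 8.84 and 9.23 in adult basal cells and 5.28, 5.21 and 4.75 in fetal cells. The populations were widely apart, and the difference was -3.66 ± 0.28 on the log2 scale, with a Holm-adjusted p of 0.053 by limma and a Benjamini-Hochberg adjusted p of 2.6e-05. Mef2c passed the filter only through the adult basal cells. Mef2a differed by -0.76, Mef2d by -0.64 and Mef2b by -0.25. Mamstr, a coactivator of MEF2, did not pass the filter. It was nowhere well above background on the basal arrays and was at least 1.51-fold brighter in fetal cells. Gata6 also fell below the filter, with overlapping groups.

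CArG boxes near the start sites of the listed genes are given as a description. A box was found for 1 of 13 contractile genes in the promoter table, 4 of 15 cytoskeletal genes, 1 of 6 immediate early genes, 1 of 6 partner and antagonist genes, none of 12 RhoA and actin genes and none of 6 MEF2 genes, beside 1.81% of all genes. The promoters of Tagln, Myh11, Actg2, Actb, Ccn2, Egr1, Egr3 and Ier2 were among those not analysed here. The boxes of 4 genes with 20 bases on each side are shown to set a contractile gene, an actin gene, an adhesion gene and an SRF antagonist beside the Srf promoter above (GRCm38.p6, 5′ to 3′, box in capitals), at chr2:156775283-156775332 on the plus strand for Myl9, chr11:120348556-120348605 on the minus strand for Actg1, chr14:20929151-20929200 on the plus strand for Vcl and chr5:77115177-77115226 on the minus strand for Hopx.
Myl9: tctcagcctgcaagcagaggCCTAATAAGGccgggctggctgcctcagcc
Actg1: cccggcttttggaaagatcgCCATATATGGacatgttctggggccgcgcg
Vcl: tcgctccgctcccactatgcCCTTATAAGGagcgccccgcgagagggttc
Hopx: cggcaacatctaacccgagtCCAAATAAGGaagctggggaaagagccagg
The genes carrying these boxes had different values: Myl9, a myosin light chain, differed by -2.52 and was called, Vcl, the adhesion protein vinculin, by -1.22, Hopx by -0.11 and Actg1 by 0.01 in its brightest probe. Acta2, Cnn1 and Mylk, which differed by far more than Vcl, had no box of the exact form counted in the window searched. Elements that depart from that form by 1 base, or that lie outside the window, were not counted for any listed gene.

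The genes whose profile over the 6 arrays was nearest to each regulator were found among 15257 genes by the root mean square difference of the centred log2 values. For Mkl1 these were Actn4, Arhgef5, Pdzd8, Fam131a and Cpeb4, at 0.050 to 0.054, with fetal minus basal differences from -1.24 to -1.14. For the brighter Srf probe they included Chst15, Ripk4, Sp4 and Rspo4, at 0.037 to 0.049. For Myocd they were 1810013A23Rik, Ranbp6, Cfap44, 9530068E07Rik and Ikbkb, at 0.027 to 0.044, and for Mkl2 Lmod3, Pkp4, St14, Fam168a and Akirin1, at 0.041 to 0.052. Since the measure includes the size of the difference, genes that differed much more or less than a regulator could not be near it.

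The labels were set against markers of the sorted cells and of others. Epcam, whose protein was stained more strongly in the fetal gate, differed by 1.88 and was called higher in fetal cells, and Itga6, which encodes CD49f, by 0.01. Among basal markers, Krt5 differed by -3.90 and the oxytocin receptor Oxtr by -3.96, both called, while Trp63, the p63 factor of basal epithelium, differed by -0.08 in one probe and -3.07 in the other. Krt14 differed by -1.20 with overlapping groups, since basal replicate 2 read 13.39 against 15.25 and 15.46 on the other basal arrays. For Zyx and Junb, basal replicate 2 was the lowest of the 6 arrays. Among 5 luminal markers, Elf5 differed by 7.55 and Kit by 4.003, both called higher in fetal cells, with Elf5 above the filter only there. Krt8 differed by 0.44 and Krt18 by 0.58 and were not called, while Krt19 went the other way at -1.22, called by Benjamini-Hochberg adjustment only. Krt5, Krt14, Elf5 and Kit all cleared background on every array of both populations.

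Some markers of other contractile and stromal cells were also higher in adult basal cells. Beside the counts below, 5.21% of all tested genes were called higher in adult basal and 6.03% higher in fetal cells by Holm adjustment. By Benjamini-Hochberg adjustment these shares were 13.9% and 15.8%. For pericytes and vascular smooth muscle, 6 of 7 markers were tested. Pdgfrb was called higher in adult basal cells at -4.34 and Notch3 higher in fetal cells at 4.70. Rgs5 differed by -2.22, called by Benjamini-Hochberg adjustment only, and Kcnj8 did not clear background on any array. Pdgfrb and Rgs5 passed the filter only through the adult basal cells, and of the 4 markers above it in both populations 0 were called higher in adult basal cells. Cspg4, Abcc9 and Higd1b differed by -0.07, -0.33 and -0.29. Notch3 made up 79.9% of the summed fetal signal of this list, and the sums were 2981, 3439 and 2831 on the basal and 9263, 8563 and 8307 on the fetal arrays (normalized signal, linear). For fibroblasts, all 5 markers were tested, Dcn was called at -3.78 and made up 75.3% of the basal and 23.9% of the fetal sum, and the sums were 11286, 13696 and 18319 on the basal and 2828, 3288 and 3714 on the fetal arrays. Col3a1 differed by -0.89, Pdgfra by -0.37, Lum by -1.05, called by Benjamini-Hochberg adjustment only, and Col1a1 by -0.01. For skeletal and cardiac muscle, 6 of 9 markers were tested and Acta1, itself a target of SRF, was called at -4.68 and made up 95.6% of the basal sum. The sums of this list were 21358, 24512 and 21270 on the basal and 1596, 1713 and 1397 on the fetal arrays, while the muscle-defining Myod1 and Myog had overlapping groups at -0.07 and -0.17. Actc1 at -3.42, above the filter only in adult basal cells, and Tnnt2 at 2.15, higher in fetal cells, were called by Benjamini-Hochberg adjustment only. For leukocytes none of 5 markers was called by Holm adjustment. Cd52 at -4.39 and Lyz2 at -1.76, both above the filter only in adult basal cells, were called by Benjamini-Hochberg adjustment. The leukocyte sums were 5647, 5533 and 5780 on the basal and 5291, 4374 and 5173 on the fetal arrays. Cd3e, which differed by -0.05, made up 79.2% of the basal and 87.5% of the fetal sum. For endothelium none of 3 tested of 4 was called by Holm adjustment. Cdh5, above the filter only in adult basal cells, was at -2.70 and was called by Benjamini-Hochberg adjustment only. The endothelial sums were 12611, 13599 and 10957 on the basal and 12212, 10732 and 12468 on the fetal arrays. The brightest Kdr probe made up 93.4% of the basal and 94.9% of the fetal sum, so the sums say little of the other markers. That probe had group means of 13.49 and 13.45 (log2, basal and fetal). The other Kdr probe had means of 6.87 and 6.20, with overlapping groups. The part of such cells in the contractile, Mkl1 and Mef2c differences was not tested.

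**Figure D4:**
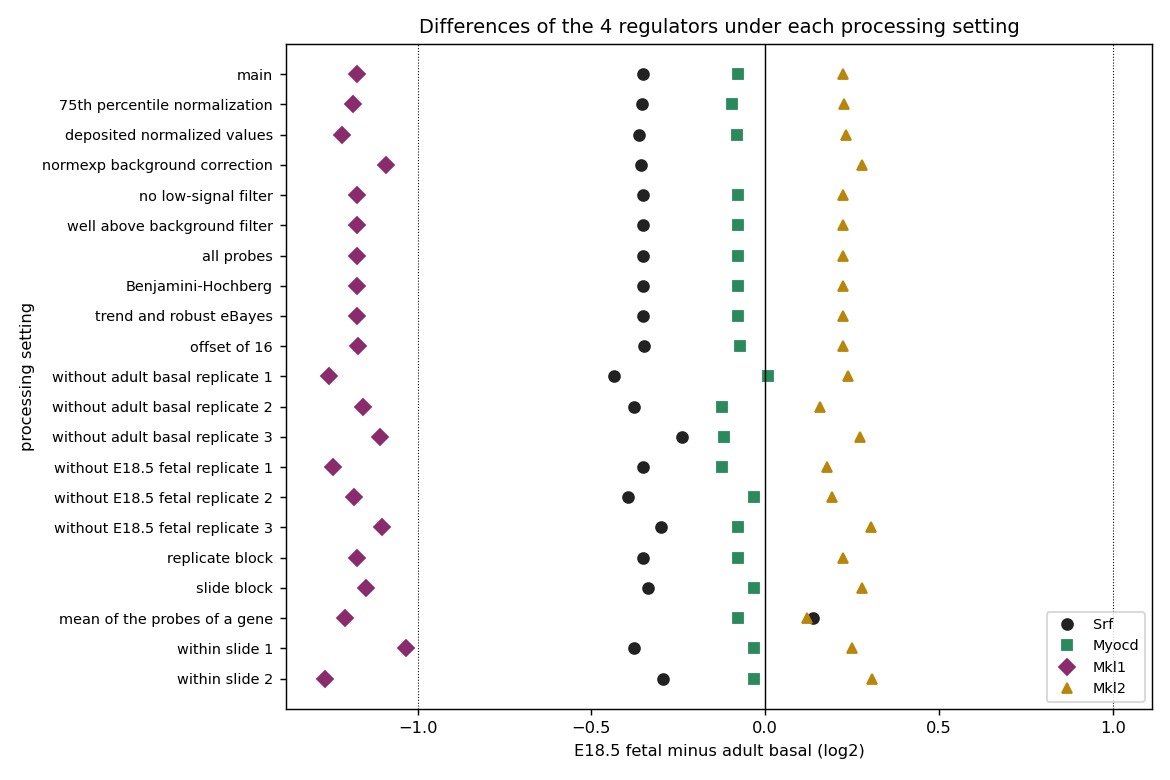
Fetal minus adult basal difference (log2, horizontal axis) of the brightest probe of each regulator, or in 1 setting of the mean of its probes, under each processing setting (vertical axis), with dotted lines at a 2-fold difference. Mkl1 stays between -1.27 and -1.03 in every setting run, Mkl2 stays above 0, and Srf crosses 0 only where the probes of a gene were averaged.

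Under the processing settings tried, both Mkl1 probes kept their direction. With the values within each slide included, the brighter probe ran from -1.27 to -1.03 and the other from -1.36 to -1.04. The brightest probe of Mkl2 ran from 0.16 to 0.31, always toward fetal cells, and was called in none, and the mean of the probes differed by 0.12, whereas A_51_P358066 lay near 0 and differed by 0.13 within slide 1 and -0.08 within slide 2. The brighter Srf probe ran from -0.44 to -0.24 and the other from 0.47 to 0.77 with values within slides included, so that their opposition did not rest on 1 array.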

How the data were processed

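Per the labels, the 6 RNA samples were labelled with a low-input Quick Amp kit, whereas the methods name a whole-transcript exon version. Whether the kit bears on the differences between probes of Srf or of Mkl2 was not tested. The authors deposited spot intensity values from Feature Extraction 11.0.1.1, background subtracted but not normalized between arrays, and a log2 table that they had quantile normalized, each column of which followed its own array best (correlations 0.971 to 0.996). Control and outlier spots (104 to 326 on an array) were removed, spots of a probe were averaged as log2 processed signals, and quantile normalization was applied to the 6 arrays. Probes were matched by RefSeq accession to the GRCm38.p6 gene table: 27235 of 55681 (48.9%) matched 20660 genes, and probes with other kinds of names were not used here. Probes in the lowest of 3 k-means clusters (100 starts, seed 1; boundary 5.95 on the log2 scale) in both populations were set aside, leaving 20448. The fit used limma 3.58.1 (lmFit, then eBayes) under R 4.3.3 on all of these, with Holm adjustment as in the methods, and was tested on simulated data. The brightest tested probe stands for a gene. By array, 76.4% to 83.3% of the probes cleared background, no spot was saturated, and the number of arrays limits the precision. Bounds set the mean of the bright group against the lowest signal well above background. Tables and plots were made in Python 3.11.15 with pandas 2.3.3, numpy 2.4.6 and matplotlib 3.10.9.

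The regulators, the gene lists and the tests were chosen with earlier results of these data known. Named genes were every probe of the 4 regulators; of each list, up to 4 called genes in each direction by size of difference; the partner and antagonist list; the sum and defining markers of marker lists; the 5 genes nearest to each regulator, of which 1 is not reported here; and the sort antigens. Further genes named among the lists, and the promoters printed, were chosen after their values were seen.

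Alternatives were 75th percentile normalization, the deposited values, normexp (offset 50, on median spot and background intensity), no filter, a filter on signal over background, all probes with or without a gene, Benjamini-Hochberg adjustment, trend and robust estimation in eBayes, an offset of 16, each array left out, replicate and slide blocks, within-slide values, and averaging over the probes of a gene. Same-numbered samples did not deviate together (correlations -0.03, 0.09 and 0.05), so replicate numbers were not treated as pairs.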

Additional observations from a re-analysis of the deposited data

How the results depend on the processing

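Both Mkl1 probes and the brightest Mkl2 probe kept their direction under all alternatives. Srf reversed to 0.14 with the mean of its probes and Myocd to 0.0082 without adult basal replicate 1, and neither was called. Leaving out 1 array gave -0.44 to -0.24 for Srf, -0.13 to 0.0082 for Myocd, -1.26 to -1.10 for Mkl1 and 0.16 to 0.30 for Mkl2; for the Mkl2 probe A_51_P358066 the range was -0.055 to 0.061, and it reversed to -0.055 without adult basal replicate 1 and to -0.027 without E18.5 fetal replicate 1 and was -0.08 within slide 2. Mkl1 was called by Benjamini-Hochberg adjustment (-1.17, adjusted p 1.3e-04 by limma) and differed by -1.03 within slide 1.

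Calls among all probes numbered 2270, and 6133 with Benjamini-Hochberg adjustment, 1182 with no filter, 1302 with the replicate block and 948 to 1949 with 1 array left out, lowest without fetal replicate 1. Contractile calls ran from 8 to 15 and from 8 to 11 with 1 array left out. Cytoskeletal calls, 4 in the main fit, were 9 with Benjamini-Hochberg adjustment, 7 with normexp and with trend and robust estimation, 2 with the replicate block and 1 to 3 with 1 array left out, fewer than 3 without fetal replicate 1, 2 or 3. Immediate early calls, 2 in the main fit, were 6 with Benjamini-Hochberg adjustment, 5 with normexp and with the offset of 16, 4 with trend and robust estimation and with the mean of probes, 1 with no filter, all probes or the replicate block, and 0 to 2 with 1 array left out, 0 without fetal replicate 1 or 2 and 1 without basal replicate 1 or 3 or fetal replicate 3. RhoA and actin calls, 2 in the main fit, were 4 with Benjamini-Hochberg adjustment, 1 with trend and robust estimation, 0 with no filter, the well above background filter, all probes, the replicate block or the slide block, and 0 to 1 with 1 array left out, whichever it was. Partner calls were 1 with Benjamini-Hochberg adjustment. MEF2 calls were 1 with Benjamini-Hochberg adjustment, trend and robust estimation, the offset of 16 or the mean of probes, and 0 to 1 with 1 array left out, 1 without basal replicate 1. The causes were not tested. The replicate numbers pair no samples by the check above, and the block changed no call of a regulator. Myocd was below the filter with normexp and has no value there. No scaling moved the median difference of all probes by over 0.1.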
